A study of Saccharomyces cerevisiae with 16 samples.

Results

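The genes described here are 44 genes of large (60S) ribosomal subunit assembly and export in budding yeast, of 6002 nuclear protein-coding genes with H3K18ac data. They were listed by function and not by a measured value, although earlier results of these data were known when the list was made. All 44 were found in the gene annotation, and all 44 passed the coverage minimum of the test. The chromatin came from prototrophic CEN.PK yeast (strain ZKY329, MATa SPT7-FLAG::natMX) growing in continuous culture and moving through the Yeast Metabolic Cycle (YMC), a slow oscillation in oxygen use. It was collected at 16 time-points between 48.32 and 51.95 h, with 1 library per time-point and the same Millipore antibody to H3K18ac throughout, so all libraries share the strain and its FLAG-tagged Spt7, a core subunit of the SAGA coactivator. The study's own schematic places time-points 3 to 5 in the oxidative, growth (OX) phase, 6 to 11 in the reductive, building (RB) phase, and 1, 2 and 12 to 16 in the reductive, charging (RC) phase. The libraries of a phase are neighbouring samples of 1 culture and not separate cultures, so the spread within a phase stands in for replicate error and p-values measure only that spread.

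Ribosomal subunits are built in the nucleolus, where RNA polymerase I makes a long precursor of the ribosomal RNAs. The precursor that leads to the 60S particle is bound by a succession of assembly factors, folded, trimmed, passed to the nucleoplasm, exported through nuclear pores and finished in the cytoplasm. In budding yeast the genes for these factors belong to the ribosome biogenesis regulon, which is switched on together when cells commit to growth. Acetylation of lysine 18 of histone H3 (H3K18ac) is laid down by the SAGA complex, among others, and marks nucleosomes near the start of active genes. The measurement here is the mark and not the RNA.

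For each gene, the mean coverage over 300 bp downstream of the start codon was divided by the mean nuclear coverage of the same library. This relative coverage is 1 where a region carries as many reads per base as the nuclear genome on average. Values were compared as log2(relative coverage + 0.1), so fold differences on this scale understate changes at low levels. The libraries held at least 6521927 to 9359720 reads, with a mean nuclear coverage of 27.5 to 39.4 reads per base. At this depth the downstream window of a gene in 1 library held 69.4 to 576 reads with a median of 210.0, which gives a counting error of 12% at the lowest and 6.90% at the median. Coverage stops at 102 reads per base in every library because duplicate reads were removed, which compresses the highest values. At least 92 reads per base were present over 30.4% of the members' window bases at time-point 4 and over 10.2% at time-point 5. The share was 0.96% at time-point 3, 0.15% at time-point 15 and zero at each of the other 12 time-points. OX levels are therefore held down most, and the OX differences given here are differences under that ceiling.

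H3K18ac at the 60S assembly genes was high in the OX phase and low again by the first RB time-point. The mean relative coverage of the 44 genes was 1.26 at time-point 1, 1.44 at time-point 2 and 1.91 at time-point 3. It reached 2.71 at time-point 4 and was still 2.17 at time-point 5. It was 1.10 at time-point 6, lay between 0.98 and 1.15 up to time-point 10 and was lowest, at 0.75, at time-points 11 and 12. Between time-points 13 and 16 it was 0.96 to 1.11. The mean over all genes stayed between 1.57 and 1.91, so outside the OX phase the assembly genes had less H3K18ac coverage than the average gene. Coverage was not divided by total H3, so this comparison between genes is not one of acetylation per nucleosome. Both means were 1.91 at time-point 3, and the mean of the assembly genes was above that of all genes at time-points 4 and 5.

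**Figure D1:**
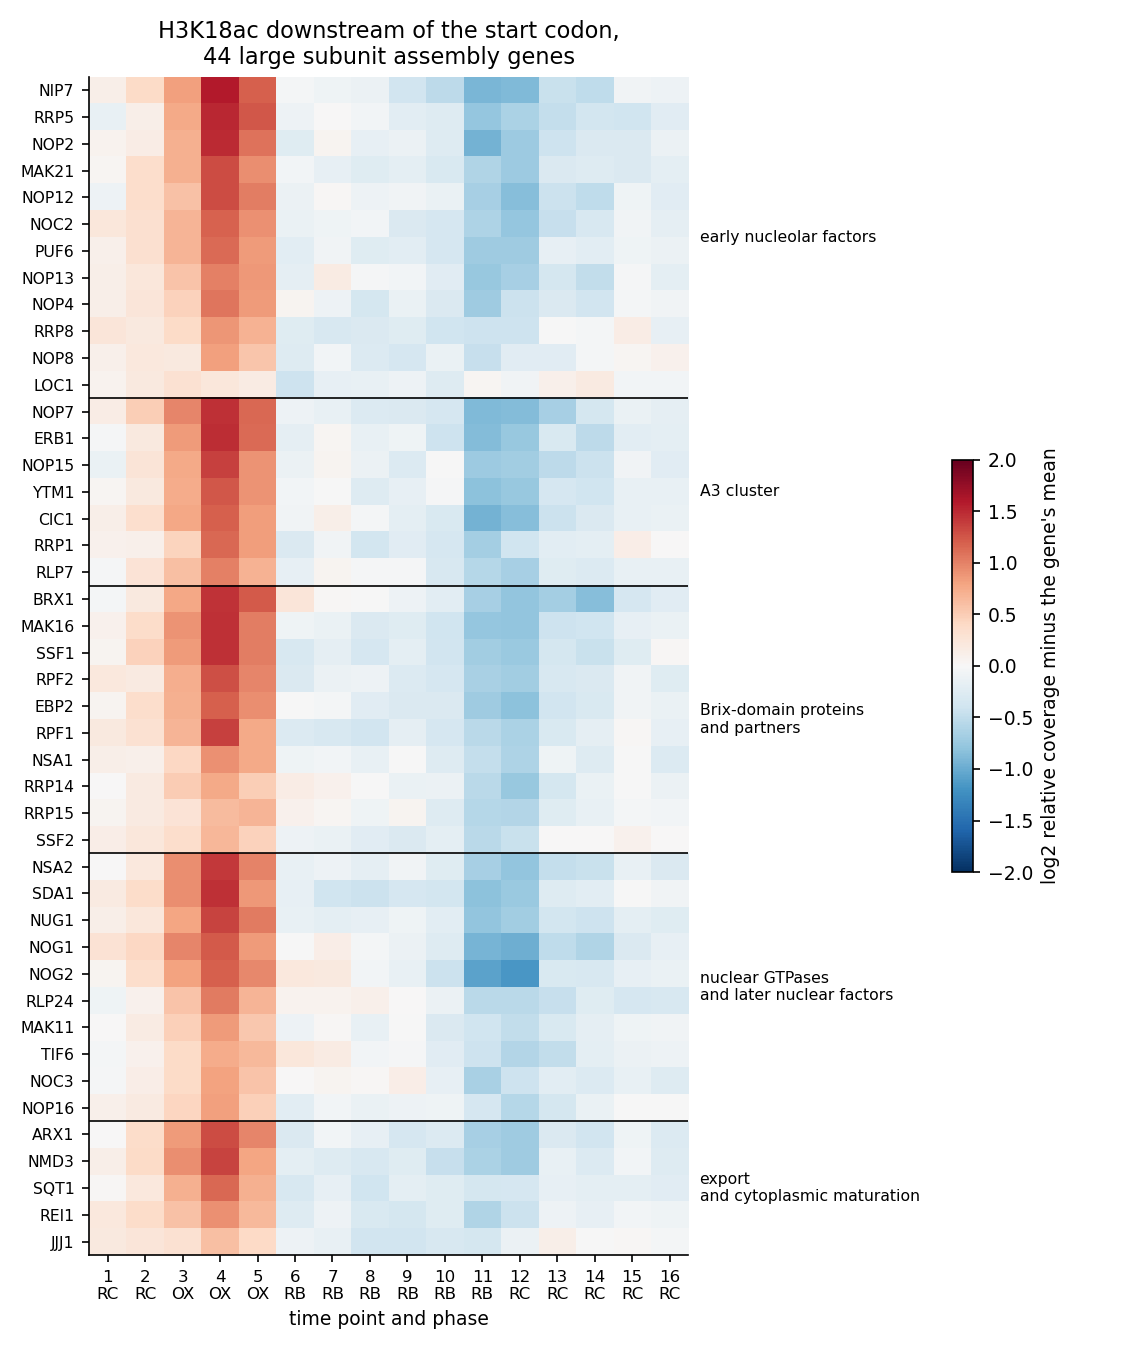
H3K18ac of each of the 44 genes (rows, in 5 role groups) at each time-point (columns, with the phase), as log2(relative coverage + 0.1) downstream of the start codon minus the gene's own mean. The highest column is time-point 4 in 42 of 44 rows, the lowest values lie mainly at time-points 11 and 12, and LOC1 stands out as the palest row.

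All 44 genes were called higher in OX than the mean of the other phases (limma, Benjamini-Hochberg adjusted p under 0.05), where 31.4% of the 5713 genes tested were called higher. The median OX difference was 1.16 on the log2 scale, from 0.29 at LOC1 to 1.48 at NIP7, and the median over all genes was 0.06. Ranked by that difference, 42 of the 44 genes were among the 571 genes of the top 10%, with a median rank of 80.5. In 42 of the 44 genes each of the 3 OX time-points was above all 13 others, which held for 17.2% of all genes. The exceptions were NOP8 and LOC1. Without time-point 4 all 44 genes were still called and the median difference was 1.02, while the number of genes called fell from 1792 to 886.

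The peak was at time-point 4 in 42 genes, at time-point 3 in LOC1 and at time-point 5 in RRP15, whereas 31.2% of all genes peaked at time-point 4. The trough was at time-point 12 in 22 genes (20.4% of all genes) and at time-point 11 in 18 (567 of the 5713 genes tested). It was at time-point 8 in JJJ1 and SQT1, at time-point 6 in LOC1 and at time-point 14 in BRX1. From trough to peak the relative coverage differed by a median of 4.43-fold, against 1.56-fold over all genes. Outside the OX phase the highest value was at time-point 2, just before it, in 36 genes, a count for which no share over all genes is given.

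A second fit did not use the phases. With a cubic polynomial over the order of the time-points, 43 of the 44 genes changed over the course, where 64.2% of all genes did, and for 37 of them (45.8% of all genes) the polynomial took up at least 60% of the variance. LOC1 was not called (adjusted p = 0.20). The polynomial result depended on the time scale. With a cubic polynomial of the hours, 26 of the 44 genes were called (33.1% of all genes), and at least 60% of the variance was taken up in 2 of them (19.8% of all genes), a smaller share than over all genes.

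The remaining phases were both low. Compared with the mean of the other phases, 41 genes were lower in RB (23.4% of all genes) with a median difference of -0.62, and 38 were lower in RC (25.3% of all genes) with a median of -0.51. Not called in RB were RRP14 (adjusted p = 0.078), RRP15 (0.051) and TIF6 (0.11). Not called in RC were REI1 (0.058), RRP8 (0.14), NOP8 (0.23), SSF2 (0.29), LOC1 (0.73) and JJJ1 (0.86). Since OX is part of each of these means, the phases were also compared in pairs, a choice made after seeing the data. All 44 genes were higher in OX than in RB (27.2% of all genes), by a median of 1.18. Only LOC1, RRP8 and JJJ1 were lower in RB than in RC (20.7% of all genes), with RB minus RC differences of -0.23, -0.31 and -0.34 (adjusted p = 0.018, 0.031 and 0.0034), and the median RB minus RC difference of the 44 genes was -0.06.

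The early nucleolar factors bind the nascent 60S precursor. This group of 12 holds Rrp5, which works in both subunit pathways, the RNA-binding Nop4, Nop8, Nop12 and Nop13, Puf6 and Loc1, the Mak21 (Noc1) and Noc2 pair, the ribosomal RNA methyltransferases Rrp8 and Nop2, and Nip7. The median OX difference was 1.12. NIP7 (YPL211W, chromosome XVI, 153495 to 154040, plus strand, R64 assembly), whose product acts in 27S pre-rRNA processing, had OX values of 1.58, 2.79 and 2.09. Its RB values ran from 0.41 to 0.83 with a median of 0.71, and its RC values from 0.42 to 1.15 with a median of 0.79. No OX value overlapped the other phases. The OX difference was 1.48 ± 0.22 (log2, SE, adjusted p = 1.0e-04), the largest of the 44, and the level differed 6.85-fold between time-points 4 and 11. RRP5 (1.44), NOP2 (1.35) and MAK21 (1.21) followed in this group. The place of NIP7 as the largest depended on the setting, and NOP7 also had 1.48 in the main fit. With a pseudocount of 1 the largest difference of the 44 was 0.95, against 0.87 at NIP7. Over 500 bp downstream it was 1.365, against 1.293 at NIP7. With a correction for the ceiling the largest difference of the 44 was 2.37, at NOP7, and NIP7 had at most 1.94 under any setting.

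LOC1 (YFR001W, chromosome VI, 149110 to 149724, plus strand), whose product binds 60S precursors and also takes part in ASH1 mRNA localization, was the exception of the group. Its OX values were 2.64, 2.51 and 2.38. The RB values ran from 1.56 to 2.18 with a median of 1.89, and the RC values from 2.01 to 2.44 with a median of 2.24, so OX overlapped RC. The OX difference of 0.29 ± 0.08 (SE, adjusted p = 0.0071) was the smallest of the 44, and with quantile normalization it was 0.16 and not called (adjusted p = 0.082). LOC1 also had the highest mean coverage of the 44 genes, 67.9 reads per base against a median of 39.7, and at most 6.67% of its window bases reached 92 reads at any time-point. NOP8 had the lowest mean coverage (21.3 reads per base), with OX values of 0.76, 1.22 and 1.00. Its value at time-point 3 (0.762) was just within the range of RC, which reached 0.765, and its OX difference was 0.65 ± 0.12 (SE, adjusted p = 4.5e-04).

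The A3 cluster is a set of interdependent factors needed to trim the 5′ end of 5.8S ribosomal RNA. Its 7 genes had a median OX difference of 1.18, and Nop7, Erb1 and Ytm1 form a complex within it. NOP7 (YGR103W, chromosome VII, 695417 to 697234, plus strand) had OX values of 2.28, 3.24 and 2.59. Its RB values ran from 0.56 to 1.02 with a median of 0.90 and its RC values from 0.56 to 1.60 with a median of 0.97. OX lay above both, by 1.48 ± 0.21 (log2, SE, adjusted p = 8.3e-05). At time-point 4, 84.3% of the NOP7 window was at 92 reads or more, jointly the highest share among the 44 genes, so its peak is one of those most held down by the ceiling. RLP7 (YNL002C, chromosome XIV, 626174 to 627142, minus strand), a relative of ribosomal protein L7 that sits on the precursor RNA, changed least of the 7. Its OX values were 2.31, 3.10 and 2.48, its RB values ran from 0.98 to 1.56 and its RC values from 0.90 to 1.83. These did not overlap, and the difference was 0.94 ± 0.15 (SE, adjusted p = 1.6e-04). ERB1 (1.42), NOP15 (1.23), YTM1 (1.18), CIC1 (1.16) and RRP1 (1.01) lay between them.

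Proteins with a Brix domain work in pairs with partners on the precursor: Brx1 with Ebp2, Rpf1 with Mak16, Ssf1 with Rrp15 and Rrp14, and Rpf2 on the 5S RNA particle. The 10 genes had a median OX difference of 1.17. BRX1 (YOL077C, chromosome XV, 185848 to 186723, minus strand) had OX values of 1.68, 2.73 and 2.35, RB values from 0.55 to 1.13 and RC values from 0.48 to 1.09. There was no overlap, and the difference was 1.41 ± 0.20 (SE, adjusted p = 8.7e-05). Its partner gene EBP2 had a difference of 1.17. The pair RPF1 and MAK16 had differences of 1.16 and 1.39. RRP14 (0.72) and RRP15 (0.65) were lower in difference than SSF1, whose product they accompany, and both kept a higher level outside OX, with RB means of 1.57 and 1.22.

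The paralogs SSF1 and SSF2 encode redundant Brix proteins from separate chromosomes. SSF1 (YHR066W, chromosome VIII, 229335 to 230696, plus strand) had OX values of 1.27, 1.98 and 1.43, RB values from 0.37 to 0.57 with a median of 0.51 and RC values from 0.35 to 0.95 with a median of 0.54. SSF2 (YDR312W, chromosome IV, 1087581 to 1088942, plus strand) had OX values of 1.18, 1.48 and 1.28, RB values from 0.59 to 0.83 with a median of 0.76 and RC values from 0.63 to 1.07 with a median of 0.91. In both genes OX was separate from the other phases, but SSF1 went from a lower base to a higher peak. The OX difference was 1.37 ± 0.18 (SE, adjusted p = 6.2e-05) at SSF1 and 0.62 ± 0.12 (SE, adjusted p = 5.8e-04) at SSF2, the smallest of its group. The difference between the paralogs was not tested. Multimapped reads were discarded by the authors, so reads shared between the genes are missing from both. No base of either window was without reads in all libraries.

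**Figure D2:**
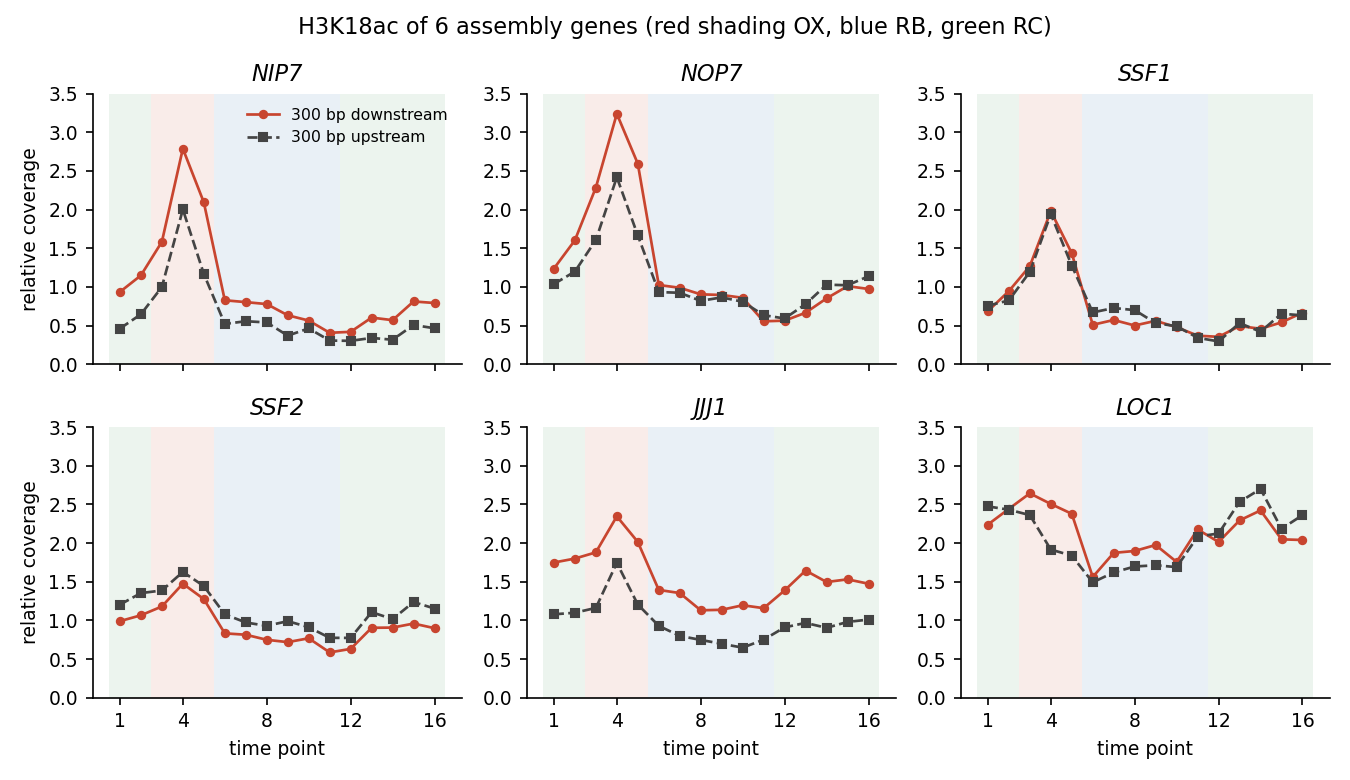
Relative coverage (nuclear mean 1) at each of 16 time-points for 6 of the genes, downstream (red circles) and upstream (dark squares) of the start codon, with OX shaded red, RB blue and RC green. NIP7, NOP7 and SSF1 peak sharply at time-point 4, SSF2 and JJJ1 less so, and upstream of LOC1 the highest value is at time-point 14.

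The group of nuclear GTPases and later nuclear factors had a median OX difference of 1.08 over 10 genes. Nog1, Nog2 and Nug1 are GTPases of the nucleolar and nucleoplasmic particles, Rlp24 holds the place of ribosomal protein L24, Noc3 pairs with Noc2, and Tif6 keeps the subunits from joining too early. NSA2 (YER126C, chromosome V, 413394 to 414179, minus strand), which acts next to Nog1, had OX values of 2.12, 3.01 and 2.22. Its RB values ran from 0.63 to 1.01 and its RC values from 0.57 to 1.24, below every OX value. The difference was 1.37 ± 0.17 (SE, adjusted p = 4.3e-05). NOP16 (YER002W, chromosome V, 156803 to 157498, plus strand) had OX values of 2.10, 2.78 and 2.17, RB values from 1.19 to 1.47 and RC values from 1.00 to 1.75. The phases were again separate, and the difference was the smallest of the group, 0.71 ± 0.12 (SE, adjusted p = 3.2e-04). The genes fell into a higher set of SDA1 (1.35), NUG1 (1.31), NOG1 (1.25) and NOG2 (1.22), RLP24 at 0.93, and a lower set of MAK11 (0.76), TIF6 (0.73) and NOC3 (0.72).

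The export and cytoplasmic maturation genes act last. Arx1 and the Crm1 adaptor Nmd3 take the particle through the pore, Rei1 and the J-protein Jjj1 release Arx1 in the cytoplasm, and Sqt1 is the chaperone of ribosomal protein L10. Their median OX difference was 1.06 over 5 genes. ARX1 (YDR101C, chromosome IV, 655686 to 657467, minus strand) had OX values of 2.22, 3.06 and 2.45, RB values from 0.71 to 1.15 and RC values from 0.69 to 1.57. OX was separate, by 1.29 ± 0.16 (SE, adjusted p = 5.0e-05). JJJ1 (YNL227C, chromosome XIV, 220659 to 222431, minus strand) had OX values of 1.88, 2.35 and 2.02, RB values from 1.13 to 1.39 with a median of 1.18 and RC values from 1.39 to 1.80 with a median of 1.53. Its OX value at time-point 3 was only just above the highest RC value, and the difference was 0.54 ± 0.08 (SE, adjusted p = 1.3e-04). NMD3 (1.27), SQT1 (1.06) and REI1 (0.90) lay between. The medians of the 5 role groups thus spanned 1.06 to 1.18, a narrower range than the genes within any of them.

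Over the 16 time-points each gene's profile followed that of the others closely, with a median Pearson r of 0.97 between a gene and the mean of the other 43. The lowest values were 0.52 for LOC1 and 0.82 for JJJ1. These r are descriptions, since neighbouring time-points resemble each other and all genes share the libraries and their depth. Among genes on none of the lists, those with profiles nearest to the mean of the 44 were BUD21 and RTT10 (r = 0.99 for both), URA7, UTP25 and RPA190 (also 0.99). Bud21 and Utp25 belong to small subunit processing, Ura7 makes CTP, and Rpa190 is the largest subunit of RNA polymerase I. Their OX differences were 1.31, 0.89, 1.67, 1.23 and 1.27 in the order first given.

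In the OX phase the mark peaked just inside the coding region. The mean OX profile of the 44 genes rose to 2.56 at 40 to 50 bp downstream of the start codon. In the same bin the profile was 1.13 in RB and 1.25 in RC. Between 600 bp upstream and 1000 bp downstream, the RB and RC profiles were highest at 350 to 360 bp upstream, at 1.28 and 1.33. A dip upstream of the start codon, where the promoters lie, remained in every phase, at 1.49 in OX (180 to 190 bp upstream), 0.76 in RB and 0.82 in RC. Farther downstream the phases came together. The bins were not cut at the end of a gene, so in short genes such as NIP7 and LOC1 they run past it. From 300 to 600 bp the means were 1.18 in OX, 0.82 in RB and 0.74 in RC, and from 600 to 1000 bp they were 0.70, 0.77 and 0.71. Over all genes the highest values at 30 to 50 bp were 1.94, 1.72 and 1.87 for OX, RB and RC, so the phases differed little there.

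**Figure D3:**
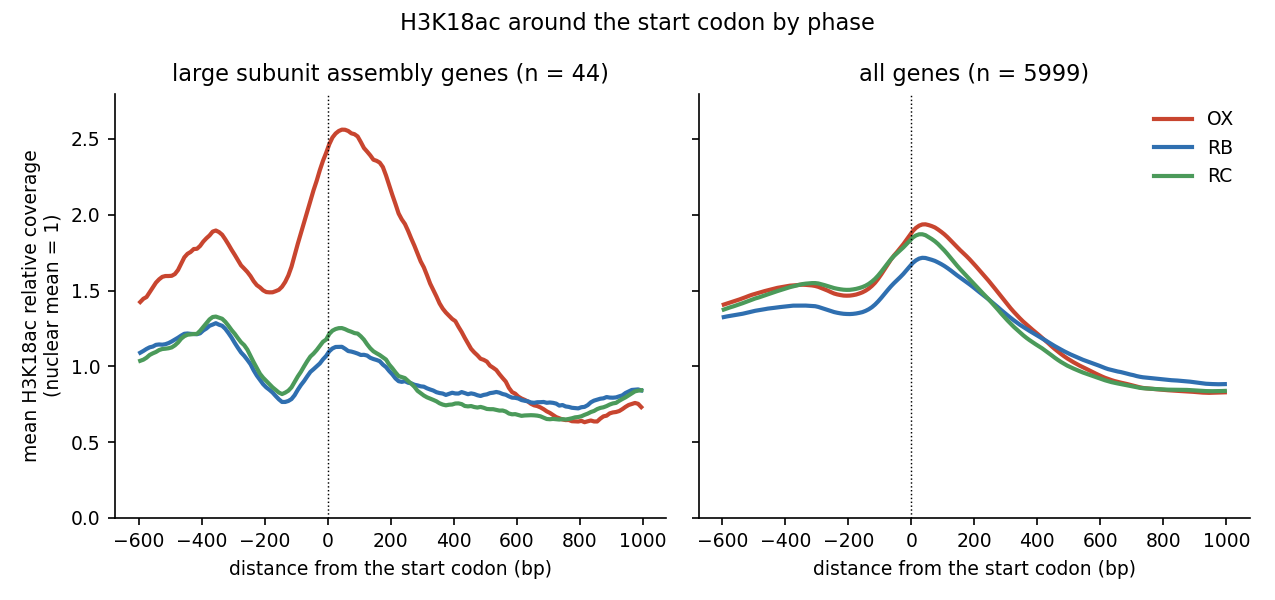
Mean relative coverage in 10-bp bins against distance from the start codon (bp, dotted line at 0), for the 44 genes (left) and all genes (right), with 1 line per phase. At the assembly genes the OX line reaches 2.56 at 40 to 50 bp, where the RB and RC lines are at 1.13 and 1.25. For all genes the 3 lines lie close together.

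The 300 bp upstream of the start codon gave the same picture at a smaller size. OX was called higher in 43 of 44 genes (24.6% of all genes), with a median difference of 0.83 against 0.02 for all genes. LOC1 was the gene not called. Its upstream values were 2.36, 1.92 and 1.84 in OX, the first within the RC range of 2.12 to 2.70 and the other two under it. The OX difference was 0.00 (adjusted p = 0.99), and LOC1 was instead called higher in RC, by 0.35 ± 0.07 (log2, SE, adjusted p = 8.0e-04). The 3 OX values were above all others in 36 of 44 genes (12.2% of all genes), the exceptions being NOP13, LOC1, RRP8, NSA1, RRP15, NOP16, MAK11 and NMD3. By the cubic polynomial over the order of sampling, 42 genes changed upstream (73.8% of all genes).

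Within each gene, the OX difference was larger downstream than upstream in 40 of 44, and in 64.1% of all genes. A test of the difference between the regions in each gene, added after seeing the data, called 19 genes higher downstream (11.9% of all genes), with a median gap of 0.24 against 0.05 over all genes. The widest gaps were at RPF1 (0.68), ERB1 (0.60) and ARX1 (0.59). At ARX1, upstream coverage was 1.01, 1.45 and 1.02 in OX, against the 2.22, 3.06 and 2.45 downstream. In contrast NIP7 (gap of 0.07, adjusted p = 0.63) and NSA2 (gap of 0.05, adjusted p = 0.69) were not called, with upstream OX differences of 1.41 and 1.32. The upstream and downstream profiles of a gene had a median r of 0.96 over 16 time-points, and the lowest was 0.67 at MAK11.

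The 3′ ends differed from the starts. Over the last 300 bp of the 33 genes of at least 900 bp, 1 gene was higher in OX (8.43% of the 3737 genes tested) and 11 were lower (21.8%), also as an addition after seeing the data. The median difference was -0.22, and it was -0.17 over all genes. The gene that rose was NOG2 (0.34, adjusted p = 0.048), and the most negative differences were at SDA1 (-0.58) and EBP2 (-0.51). Both had OX differences over 1 at the start codon. Over the last 300 bp, 13 of the 33 genes were higher in RC (542 of the 3737 genes tested) and 0 lower (555). In RB, 2 were higher (1085 of the 3737) and 4 lower (279). Coverage was scaled to the mean of each library, so the relative coverage of starts and ends is not independent, and the part of this scaling in the lower values was not tested.

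**Figure D4:**
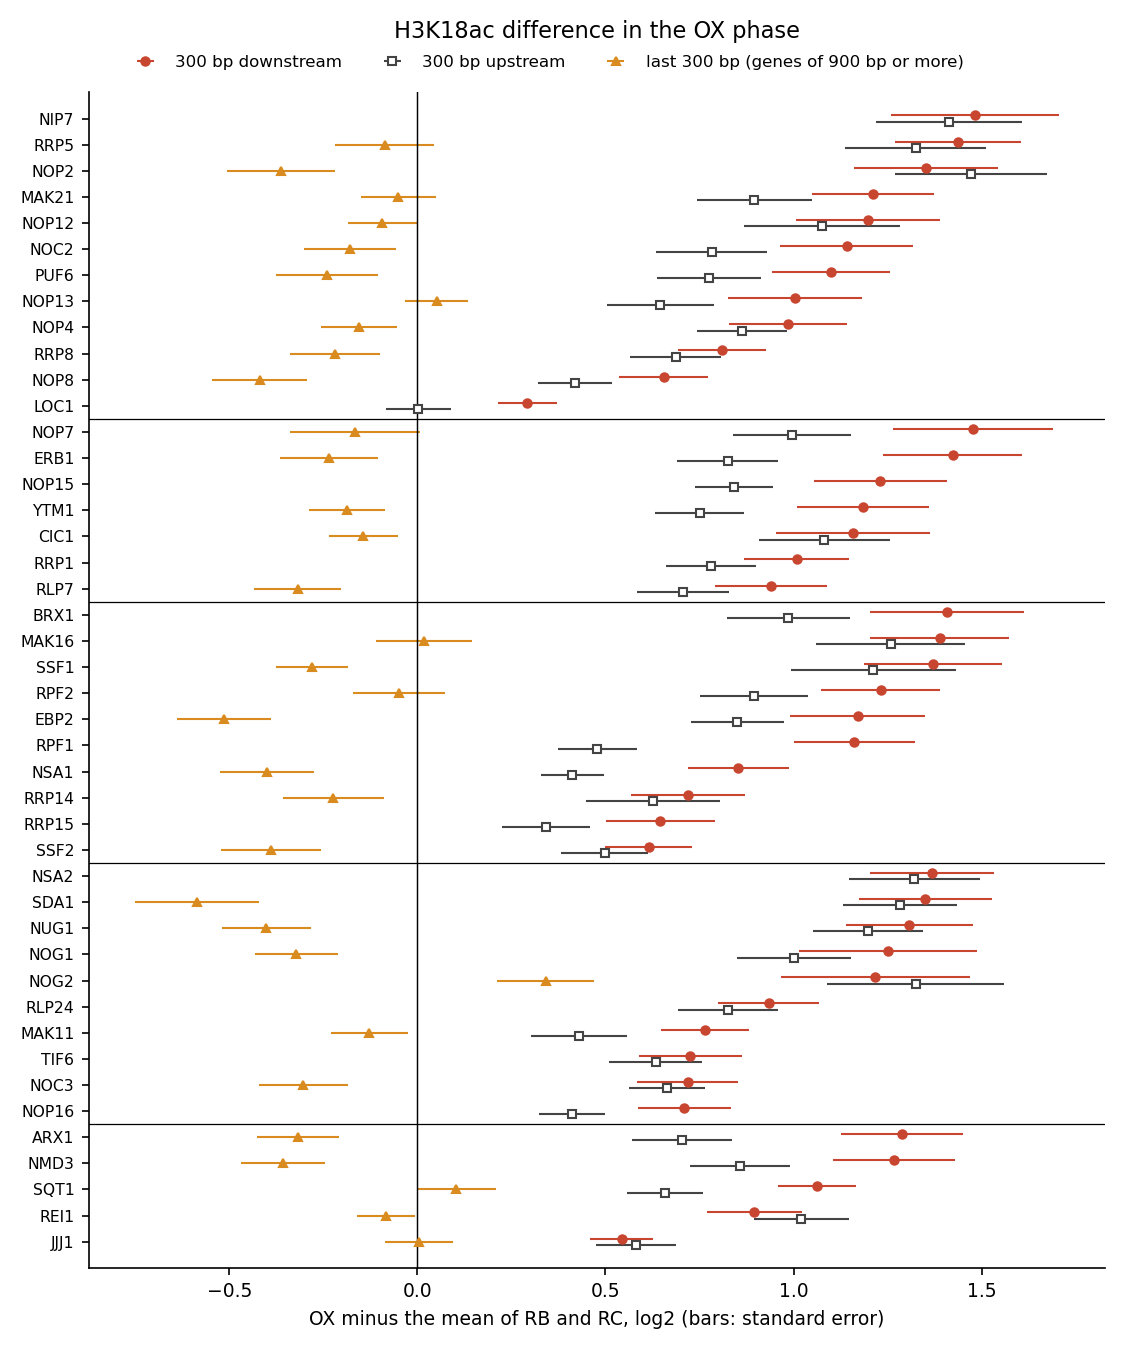
OX difference (log2, x axis, OX minus the mean of RB and RC) for each of the 44 genes in their role groups, downstream (red circles), upstream (open squares) and over the last 300 bp (triangles, 33 genes of at least 900 bp), with standard errors as bars. Downstream values run from 0.29 to 1.48, and those of the last 300 bp lie mainly under 0.

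The upstream region can belong to a neighbour too. Of the 44 genes, 19 shared their upstream region with a divergent gene and 25 followed a gene on the same strand, with median upstream OX differences of 0.90 and 0.78. The gap to the upstream gene had a median of 320.5 bp, and 16 of the 19 divergent gaps were under 600 bp. The downstream windows of the divergent neighbours, which are on the far side of the shared region, were called higher in OX in 15 of 19 (31.4% of all genes) and not called in the other 4. At NIP7 the neighbour PUS1, a tRNA pseudouridine synthase gene, had an OX difference of 1.31 (adjusted p = 5.1e-05). At NOP2 the neighbour GCD10 (a tRNA methyltransferase subunit) had 1.31, at NSA2 the small subunit processome gene LCP5 had 1.26, and at SSF1 the helicase gene RRP3 had 0.97. The 4 not called were UBC5, KAR3, CTR9 and TAF6. At MAK21, UBC5 had -0.14 (adjusted p = 0.27). At RRP15 the kinesin gene KAR3 had 0.06 (adjusted p = 0.66). At NOP8, CTR9 had 0.16 (adjusted p = 0.099), and at NSA1 the TAF6 gene had 0.19 (adjusted p = 0.060). These 8 neighbours were chosen after their values were seen. Where the interval is short, the upstream window holds promoter nucleosomes of both genes, whose shares cannot be told apart. The gap was under 300 bp in 6 of the divergent genes and in 10 of the 25 others, so these upstream windows ran into the neighbouring gene. Its part in the smaller upstream OX differences was not tested.

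Other lists of ribosome genes gave a comparison in the downstream region, where 31.4% of all genes were called higher in OX. A further list of 27 60S assembly genes was called higher in OX in 27 of 27, with a median of 0.90, and 11 of 11 60S helicase genes were, with a median of 1.08. The SSU processome genes, which build the small subunit, were called in 40 of 40 with a median of 1.04, and their mean profile was near that of the 44 genes. The genes for the large subunit proteins themselves (RPL) followed another time course. Of 73 RPL genes, 53 were called higher in OX, with a median of 0.67, and their mark stayed up after the OX phase. Their downstream windows had a median relative coverage of 2.14, against 1.255 for the assembly genes, and nearness to the ceiling was not compared. Upstream, these medians were 1.23 and 1.06. There, 68 of 73 RPL genes were called higher in OX (24.6% of all genes), with a median of 0.67 against 0.83. On the scale of mean log2 relative coverage with each gene's mean set to 0, the assembly genes had 0.83 in the last OX library and -0.11 in the first RB library. The SSU processome genes had 0.84 and -0.05 there, and the RPL genes 0.47 and 0.36. The RPL value was still 0.24 at time-point 9. In the libraries of time-points 11 and 12 it was -0.86 and -1.10, against -0.65 and -0.64 for the assembly genes. OX was called higher than RB in 2 of 73 RPL genes and in 44 of 44 assembly genes (27.2% of all genes). The median OX minus RB difference of the RPL genes was nevertheless 0.50, against 0.098 over all genes. The difference between the lists was not tested.

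**Figure D5:**
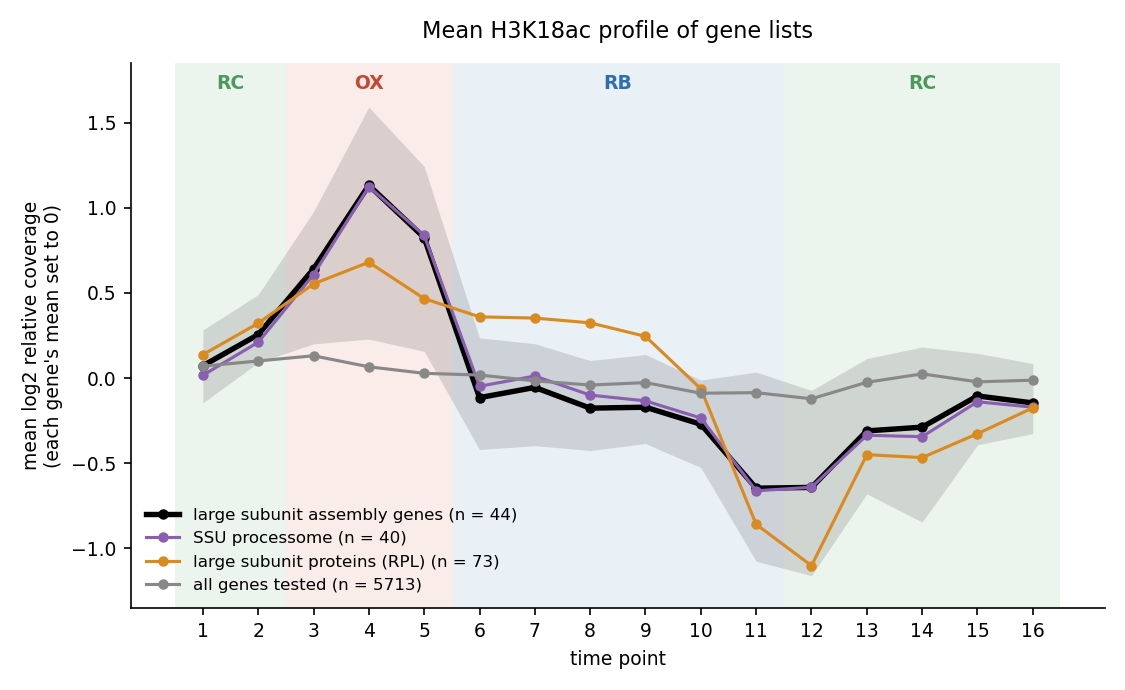
Mean log2(relative coverage + 0.1) downstream of the start codon, with each gene's mean set to 0, against time-point, for the 44 assembly genes (black, grey band from the lowest to the highest gene), SSU processome genes, RPL genes and all genes tested. The assembly and SSU processome lines fall between time-points 5 and 6 (assembly genes 0.83 to -0.11), and the RPL line falls after time-point 9.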

How the data were processed

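H3K18ac ChIP-seq libraries of 16 time-points were used. Reads were trimmed and mapped by the authors, who removed duplicates and reads with several map positions and deposited the coverage signal as whole reads over each base (annotation release 91), with no depth correction and no division by total H3. The aligner is Bowtie in the study's methods and STAR in the submitters' processing notes, beside Trimmomatic 0.32, SAMtools and bedtools. Reads were counted as summed coverage over a read length of 51 bp, inferred from the ceiling of 102.

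Here, coverage was averaged over 300 bp downstream and upstream of the start codon (R64 gene table, which gives no strand, so strand was read from the locus tag), divided by the mean nuclear coverage and taken as log2 with a pseudocount of 0.1. A mean coverage of 5 or more was required. The genes left were tested with limma 3.58.1 in R 4.3.3 (5713 downstream, 5755 upstream), each phase against the mean of the others, or as a polynomial of degree 3 over the order of sampling, with Benjamini-Hochberg adjustment over all genes tested. The phases come from the study's schematic and are no label of the samples. The script was tested on simulated data.

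The members and lists were chosen with earlier results of these data known. Full values are given for the members with the largest and smallest OX difference of each role group and for SSF1 and SSF2, and the 5 genes outside the lists with the highest r are named. Promoter sequences were not analysed here. Other steps used Python 3.11.15, numpy 2.4.6, pandas 2.3.3 and matplotlib 3.10.9. Alternatives were other pseudocounts, coverage minimums, scalings and windows, a depth covariate, a ceiling correction, 15 aligned time-points, polynomials of the hours, and leaving out each time-point.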

Additional observations from a re-analysis of the deposited data

Results flagged for a closer look

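The 11 genes described in full, and the mean of the 44 genes downstream and upstream, were searched phase by phase in RB and RC for a single library apart from the rest of the phase, which made 26 groups. Dixon's test at the 95% level picks out about 1 in 20 groups by chance where the values are independent draws. Here the groups share libraries that follow each other in time, so that rate need not hold. The test picked out 3 of the 26 groups. In RB, time-point 11 was the lowest and apart from the other 5 for NOP7 (relative coverage 0.556) and for NSA2 (0.634). In RC, time-point 12 was the lowest and apart from the other 6 for SSF2 (0.633). All 3 are low values at the neighbouring time-points 11 and 12, where the mean of the 44 genes was also lowest.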

How the results depend on the processing

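Of the 44 genes, 43 or 44 were higher in OX under every alternative run, and 44 whichever single time-point was left out. LOC1 was the gene lost, with quantile normalization (0.16, adjusted p = 0.082) and upstream (0.00, adjusted p = 0.99). The median OX difference of 1.16 was 0.73 with a pseudocount of 1, 0.83 upstream and 1.70 with the correction for the coverage ceiling, and 1.02 to 1.27 with 1 time-point left out. The count of genes that changed over the course, 43, was 26 with a polynomial of the hours (2 with at least 60% of the variance taken up, in place of 37) and 42 to 44 with 1 time-point left out. Genes lower in RB numbered 34 to 44, and lower in RC 32 to 41, with 1 time-point left out. Over all genes, 1206 instead of 1792 were higher in OX with quantile normalization and 886 without time-point 4. The OX differences of the genes described in full kept their sign. NSA1, lower in RC downstream (-0.41), had 0.03 upstream (adjusted p = 0.72). No paired analysis was possible because the labels give no replicate numbers and each time-point is 1 library. Counting error of a window in 1 library was 6.90% at the median and 12% at the lowest, and the ceiling limits OX peaks.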
